A study of Mus musculus with 4 samples.

Results

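In the mouse macrophage-like line RAW 264.7, 574 of the chromatin regions called for MED1 were made of 5 or more abutting intervals and lay outside the large clusters of occupancy. They are called many-interval regions here. They were chosen from positions alone on chromosomes 1 to 19 and X. Deposited intervals that began exactly where the preceding one ended were joined into regions, and clusters were formed of regions separated by no more than 12.5 kb. Regions of 5 or more intervals were kept where the regions of their cluster summed to under 20 kb. These 574 were 2.54% of all 22565 regions and 66.6% of the 862 regions with 5 or more intervals. The other 288 lay in clusters of 20 kb or more and serve as one comparison. The 13623 regions of 3 intervals serve as another.

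The study profiled MED1 by ChIP-seq, in which protein-bound DNA is precipitated with an antibody and sequenced, in 2 untreated libraries and in 2 libraries of cells given LPS, the endotoxin of Gram-negative bacteria, for 2 h. Cells were crosslinked with DSG and then formaldehyde. The sample labels give 10 ng/mL of LPS and the treatment protocol 100 ng/mL. All 4 libraries come from 1 cell line, with no gene altered, and the deposited list names no library for any interval. Untreated and stimulated cells could therefore not be compared, read depth is unknown, and no value below has a spread between replicates. What a boundary between abutting intervals marks is also unknown here, so neither their number nor their alternation can be read as a number or pattern of MED1 binding sites. Heights and significance are not part of the list, and the use of a control library is not given in the sources used here. Percentages carry Wilson 95% intervals, which cover counting error only. Regions of 1 list share their libraries, so groups of regions are set side by side without a test.

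Mediator is a large protein complex that connects transcription factors bound at enhancers with RNA polymerase II at promoters, and MED1 is the subunit through which many nuclear receptors and other activators contact it. Wide stretches and clusters of MED1 occupancy are commonly used to mark super-enhancers, which lie near genes that define a cell type. In macrophages, enhancers are opened by the lineage factor PU.1 together with C/EBP and AP-1 proteins, and NF-kB and interferon regulatory factors act on them after LPS.

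The promoters of 5 genes whose start lay in a many-interval region are shown because they cover the range of base composition and of start position described below. Each runs 5′ to 3′ on the gene's strand from 250 bases before to 50 bases after the start and comes from RefSeq, build GRCm38.p6, the assembly of mm10. Capitals mark matches on either strand to the fixed motifs named later, apart from the looser NF-kB pattern. Gadd45b, a growth arrest and stress gene, lies at chr10:80929841-80930140 on the plus strand. Tnip3, which encodes a binding partner of the NF-kB inhibitor A20, lies at chr6:65590148-65590447 on the plus strand. Lipa, the gene of lysosomal acid lipase, lies at chr19:34527425-34527724 on the minus strand. Actg1, the gene of cytoplasmic gamma-actin, lies at chr11:120348446-120348745 on the minus strand. Pim1, a survival kinase gene, lies at chr17:29490535-29490834 on the plus strand.
Gadd45b: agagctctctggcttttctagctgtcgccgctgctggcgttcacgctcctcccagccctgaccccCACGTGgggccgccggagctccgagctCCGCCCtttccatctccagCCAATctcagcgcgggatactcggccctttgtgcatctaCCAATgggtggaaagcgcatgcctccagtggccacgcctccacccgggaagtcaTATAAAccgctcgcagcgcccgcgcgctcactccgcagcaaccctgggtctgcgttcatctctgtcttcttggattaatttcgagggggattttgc
Tnip3: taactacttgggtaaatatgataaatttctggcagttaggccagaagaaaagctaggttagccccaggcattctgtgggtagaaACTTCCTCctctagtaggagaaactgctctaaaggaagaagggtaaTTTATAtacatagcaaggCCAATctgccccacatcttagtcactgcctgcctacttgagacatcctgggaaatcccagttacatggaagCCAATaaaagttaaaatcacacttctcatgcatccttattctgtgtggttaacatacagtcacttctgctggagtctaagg
Lipa: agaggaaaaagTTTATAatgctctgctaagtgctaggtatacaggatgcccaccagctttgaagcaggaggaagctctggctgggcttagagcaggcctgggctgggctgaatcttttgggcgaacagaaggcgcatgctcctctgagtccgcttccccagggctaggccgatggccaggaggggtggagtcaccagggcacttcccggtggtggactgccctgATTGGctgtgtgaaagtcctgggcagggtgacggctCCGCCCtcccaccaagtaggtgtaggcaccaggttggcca
Actg1: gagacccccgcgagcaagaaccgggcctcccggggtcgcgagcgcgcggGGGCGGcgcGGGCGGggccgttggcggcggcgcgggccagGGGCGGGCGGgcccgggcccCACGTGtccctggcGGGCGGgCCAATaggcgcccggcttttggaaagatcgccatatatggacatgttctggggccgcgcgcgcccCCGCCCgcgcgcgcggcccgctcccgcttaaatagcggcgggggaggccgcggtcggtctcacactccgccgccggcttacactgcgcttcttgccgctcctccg
Pim1: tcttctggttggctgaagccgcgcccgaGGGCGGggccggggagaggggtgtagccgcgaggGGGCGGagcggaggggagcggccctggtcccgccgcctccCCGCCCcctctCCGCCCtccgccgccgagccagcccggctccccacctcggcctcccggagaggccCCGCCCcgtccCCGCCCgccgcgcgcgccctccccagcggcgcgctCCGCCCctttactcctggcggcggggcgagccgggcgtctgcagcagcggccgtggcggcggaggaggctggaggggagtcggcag
The GC content of these 5 sequences was 62% for Gadd45b, 42.3% for Tnip3, 59.3% for Lipa, 77.3% for Actg1 and 81.3% for Pim1. Tnip3 had 0 CpG dinucleotides and 1 match to the PU.1-type motif. Pim1 had 42 CpG dinucleotides and 7 GC boxes, and Actg1 had 50 and 6.

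Within many-interval regions, narrow and wide intervals of the list alternated. This pattern and the widths that follow come from the values that chose the regions and are given as a description. Of the 574 regions, 524 had 5 intervals, 7 had 6, 37 had 7, 4 had 9, 1 had 10 and 1 had 11. In the 524 with 5 intervals, the median widths from the first to the fifth were 227, 1877.5, 480, 1844 and 215 bp. Intervals 2 and 4 were wider than each of their neighbours in 372 of the 524 (71.0%, 66.97 to 74.7%). In the 37 regions of 7 intervals the medians were 268, 2094, 395, 970, 475, 2110 and 281 bp, again with the even intervals wider.

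The middle interval of a 5-interval region had a sharp lower limit, and the outer ones did not. The narrowest middle interval measured 301 bp, and 198 of the 524 (37.8%) lay between 300 and 400 bp. The narrower of the outer intervals measured under 300 bp in 414 regions (79.0%) and reached 1 bp. The centres of intervals 2 and 4 were a median of 2775 bp apart (quartiles 2002 and 3797 bp). Even intervals took up a median of 73.6% of the width in the 566 regions with an odd number of intervals. The middle interval of 3-interval regions took up 78.5%. An odd number was the rule in the whole list, with 22427 of 22565 regions, and 8 many-interval regions were exceptions.

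In large clusters, the 218 regions of 5 intervals had wider intervals throughout, with medians of 654, 2646.5, 751.5, 2960.5 and 476 bp, and 53.2% (46.6 to 59.7%) showed the full alternation. The centres of their intervals 2 and 4 were a median of 4703.5 bp apart. Large clusters were defined by width, so these differences are partly set by the choice.

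Whole many-interval regions measured 1527 to 19929 bp, with a median of 5924.5 bp (quartiles 4400.5 and 8248 bp), against 2242 bp for 3-interval regions and 11774 bp for those of 5 or more intervals in large clusters. Together they covered 3.76 Mb, or 6.30% of the 59.7 Mb covered by all regions. They lay in 562 clusters, 12 of which held more than 1. Of the many-interval regions, 192 (33.4%) stood alone in their cluster, 163 had 1 neighbour and 102 had 2, and the most crowded cluster held 12 regions. The many-interval region of that cluster lay on chromosome 9 (3018750 to 3020746), 315483 bp from Alkbh8, the nearest coding gene. No interval was left out here for lying in repeated sequence. Among the 382 with neighbours, 330 were the widest region of their cluster.

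Just inside the rule, the narrowest regions of 5 intervals measured 1527 bp in Slc47a2, 1533 bp near Cfap54 and 1628 bp near Cnbd2. The clusters closest to the limit from below summed to 19.978 kb near Samd8, 19.962 kb at Spink5 and 19.942 kb at Fcer1g. Just outside, the smallest large clusters with a region of 5 intervals summed to 20.112 kb at Rpl7a and 20.134 kb at Anxa5, which held 2 such regions. Of the 28 regions of 4 intervals in the list, 24 lay in small clusters, and the widest measured 9021 bp in Niban1, 8712 bp at Ano6 and 8328 bp in Ifi47.

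The region with the most intervals, 11 over 19929 bp, lay on chromosome 7 (113132088 to 113152016) outside any coding gene, 36419 bp from Arntl, which encodes the circadian factor BMAL1. It overlapped the non-coding RNA genes 4930543E12Rik and Gm33659. One of 10 intervals and 8217 bp spanned an end of Bicra, a gene of a BAF chromatin remodelling subunit. The 4 with 9 intervals lay inside Prkch, a protein kinase C gene (13021 bp), and outside genes with Hpf1 (25179 bp away), Ptpdc1 (28627 bp) and Amz2 (9166 bp) as the nearest. The widest with 7 intervals lay 178587 bp from Klf7 (16852 bp), at the start of Zc3h12c, of the family of RNases that degrade cytokine mRNAs (14364 bp), across Arl8b and Edem1 with the Edem1 start inside (14269 bp), and in Stk38l (13842 bp). Over all 43 regions of 7 or more intervals, 15 held a listed coding gene start (34.9%, 22.4 to 49.8%), and the interval included the 41.4% of all many-interval regions given below.

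Of the 10 widest regions, those not yet described lay at or near the following genes. The Fcer1g region on chromosome 1 (171220733 to 171235985) measured 15253 bp and overlapped Fcer1g, Apoa2 and Tomm40l, among others. Fcer1g encodes the signalling chain shared by activating Fc receptors. A region of 14830 bp held the start of Cd180, which encodes a Toll-like receptor homologue that modulates LPS responses (chromosome 13, 102687865 to 102702694). A region of 14675 bp lay at an end of Rgs1, a regulator of chemokine receptor signalling (chromosome 1, 144236693 to 144251367). One lay inside Cntn4 (16564 bp) and 4 outside genes, with Usp25 (482923 bp away), Fgd2 (55606 bp), Anxa3 (71039 bp) and Edn1 (61094 bp) as the nearest coding genes. The Arntl and Klf7 regions already described were the 2 widest of all.

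With a gene-end window of 1 kb, more of the many-interval regions lay inside genes than at gene ends. Gene positions played no part in choosing them. The midpoint lay inside a protein-coding gene in 270 of 574 regions (47.0%, 42.99 to 51.1%), outside genes in 177 (30.8%, 27.2 to 34.7%) and within 1 kb of either gene end in 127 (22.1%, 18.9 to 25.7%). With a window of 2500 bp the order turned round, with 33.1% inside genes and 42.0% at gene ends. Of 3-interval regions, 41.4% (40.5 to 42.2%) had the midpoint at a gene end, and of large-cluster regions of 5 or more intervals 8.68% (5.95 to 12.5%). Wide regions reach far from a gene end even when they contain it, so the midpoint depends on width. The 286 many-interval regions between the quartiles of width (4400.5 to 8248 bp) were therefore set beside the 1186 regions of 3 intervals of the same widths in small clusters. The share at gene ends was then 17.1% (13.2 to 21.9%) against 24.8% (22.4 to 27.3%), and the share outside genes 35.0% (29.7 to 40.7%) against 23.7% (21.4 to 26.2%). These intervals did not overlap, and those of the shares inside genes did (47.9 and 51.5%). Median widths were still unequal (5924.5 and 5404.5 bp). The midpoint lay within 1 kb of an annotated 5′ end in 10.4% (7.31 to 14.5%) against 17.7% (15.6 to 19.99%), without overlap. A listed gene start was held by 37.9% against 40.7%, with overlapping intervals.

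Gene starts, as opposed to gene ends of either kind, could be placed for 17273 of 21627 coding genes, those with an entry in the RefSeq promoter table. The table used here has no entry for the 510 coding genes of chromosome 18, so its 13 many-interval regions were left out of all values on starts. Of the remaining 561, 232 held a listed gene start (41.4%, 37.4 to 45.5%), against 39.5% (38.7 to 40.4%) of 3-interval and 37.3% (31.9 to 43.1%) of large-cluster regions. Genes without an entry are not counted, so the shares with a start or near a 5′ or 3′ end, here and above, are lower bounds. The Rgs1 region described above spans the whole gene and yet counts as holding no start. The midpoint lay within 1 kb of an annotated 5′ end in 97 (17.3%) and of a 3′ end in 18 (3.21%). Starts of 2 or more genes lay in 33 regions (5.88%), and 15 (2.67%) held a divergent pair at most 1 kb apart, against 3.81% of 3-interval regions. The 5 regions with 3 or more starts included 1 of 12166 bp over the histone genes H2ac12, H2bc12, H4c9, H2ac11 and H2bc11. Another, of 12376 bp and 7 intervals, held the starts of Eif2b4, Snx17 and Zfp513. The 329 regions without a listed start had their midpoint a median of 41.998 kb from the nearest listed one (quartiles 14.1 and 105 kb). Of them, 45.0% lay over 50 kb away. An unlisted start can lie nearer, so these distances are upper bounds. The corresponding median for 3-interval regions was 30.2 kb, and for those of the members' middle widths in small clusters it was 43.0 kb, against 34.8 kb for the many-interval regions of those widths.

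Inside the regions, most gene starts fell in the even intervals, as in the comparison sets. In 5-interval regions, 206 of 246 starts (83.7%, 78.6 to 87.8%) lay in interval 2 or 4, which made up 71.2% of the width of the regions with a start. The outer intervals, with 15.7% of the width, held 5 starts (2.03%, 0.871 to 4.67%). The middle interval held 35 starts (14.2%, 10.4 to 19.1%), close to its 13.1% share of the width. In large clusters, intervals 2 and 4 held 89 of 94 starts (94.7%) with 64.1% of the width, and the middle interval of 3-interval regions held 96.0% with 74.7%. In large clusters, the middle interval held 3 of 94 starts (3.19%, 1.09 to 8.97%) with 14.4% of the width. The share in the middle interval differed with region width. It was 22.3% (16.0 to 30.2%) of 130 starts in many-interval regions below the median width and 5.17% (2.39 to 10.8%) of 116 in those at or above it. In large-cluster regions no wider than the upper quartile of the 5-interval many-interval regions, it was 2 of 17 starts (11.8%, 3.29 to 34.3%). The share of the width taken by the middle interval was not computed for these groups of width, so their shares of starts lack that base.

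**Figure D1:**
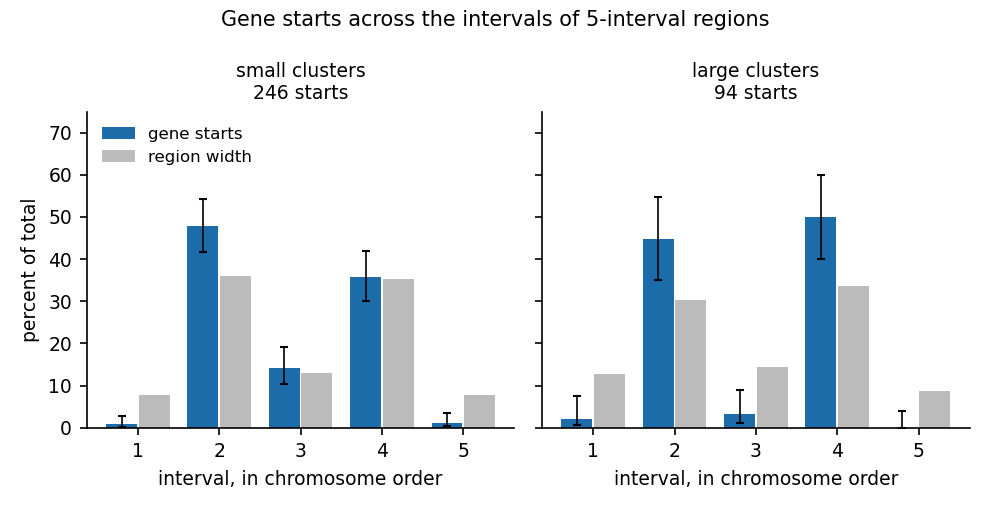
Percent of gene starts and percent of region width in each of the 5 intervals, for small clusters (246 starts) and large clusters (94 starts). Bars on the gene starts are Wilson 95% intervals. Intervals 2 and 4 hold 48.0 and 35.8% of starts in small clusters, and the middle interval 14.2%.

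The 35 genes that started in the middle interval included Mki67, the gene of the proliferation marker Ki-67, and Odc1, of the first enzyme of polyamine synthesis. Setd2, a histone H3 lysine methyltransferase gene, Gnb1, a G protein beta subunit gene, and Glud1, the glutamate dehydrogenase gene, were others, as was Pim1, whose sequence is shown above. These genes were picked out after their values were seen. Their promoters had a median GC content of 70.3% (quartiles 64.3 and 77%) and 31 CpG dinucleotides, against 61.5% (55.3 and 67%) and 20 for the 206 that started in interval 2 or 4. The regions around them were narrower, with a median of 3800 bp against 5961.5 bp, while the middle intervals had similar medians (439 and 431.5 bp). Base composition and region width moved together with the place of the start, and their part in it was not tested.

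Regions with a single listed gene start reached further downstream of it than upstream, in some cases beyond the gene's other end. In the 199 many-interval regions of this kind, the median reach was 1644 bp upstream and 2941 bp downstream, and the downstream side was longer in 132 (66.3%, 59.5 to 72.5%). The same held for 64.7% (63.3 to 66.1%) of 3-interval regions. Read in the direction of the gene, interval 2 held 50.0% of 184 single starts in 5-interval regions, interval 4 31.0% and the middle one 16.8%.

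A many-interval region overlapped 527 of 21627 coding genes, or 2.44% of all coding genes tested and 4.76% of the 11064 (51.2%) overlapped by any MED1 region. Overlapped genes were longer, with a median of 28.2 kb against 23.6 kb for genes overlapped by any region and 17.3 kb for all. Of the 18 gene lists, 574 of 577 genes were found in the annotation, and 39 were overlapped. Each list share below is to be read against the 2.44%, or against the 4.76% where nearly all genes of the list carried some region.

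Genes of lysosomes, lipids and iron were overlapped in 8 of 39 cases (20.5%, 10.8 to 35.5%). A 5-interval region of 13962 bp held the start of Lipa (chromosome 19, 34514247 to 34528208), with intervals of 822, 3993, 331, 8586 and 230 bp. Npc2, whose product moves cholesterol out of lysosomes, carried a region of 10431 bp. Nr1h3, encoding the oxysterol receptor LXR alpha, carried one of 6382 bp that held the start of its neighbour Acp2, and Tfeb, a master regulator of lysosomal genes, one of 5493 bp. The starts of Soat1, a cholesterol-esterifying enzyme (4820 bp), Srebf1, a lipogenic transcription factor (4844 bp), and Lamp1, a lysosomal membrane protein (5029 bp), lay within regions too. The Lamp1 start was at the very edge, 0.025 kb from the region's end.

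Genes of MAP kinases and their DUSP phosphatases were overlapped in 6 of 31 cases (19.4%, 9.19 to 36.3%). Dusp4, a nuclear MAP kinase phosphatase gene, carried the widest of them, with the midpoint inside the gene (13487 bp, chromosome 8, 34804030 to 34817516). That region also spanned an end of Dusp4, which has no listed start, so whether it held the start was not counted. Map3k5, encoding the stress kinase ASK1, carried a region of 7891 bp. Those of 6825 bp at Map2k3, an activator of p38, of 6824 bp at Dusp16 and of 5206 bp at Mapk14, which encodes p38 alpha, held the gene start. Rps6ka1, a ribosomal S6 kinase gene, carried 1 of 3643 bp.

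Genes of survival, stress and growth control were overlapped in 5 of 38 cases (13.2%, 5.75 to 27.3%). The regions at Pim1 (9684 bp), Ddit3, encoding the stress factor CHOP (9448 bp), Klf2 (7082 bp) and Klf13 (6021 bp) held the gene start. The Ddit3 region also held the start of Mbd6. The region of 8985 bp at Trib1, a pseudokinase gene that controls C/EBP alpha levels, lay inside the gene by its midpoint. It also spanned an end of Trib1, which has no listed start, so whether it held the start was not counted.

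Toll-like receptor and NF-kB signalling genes were overlapped in 4 of 39 cases (10.3%, 4.06 to 23.6%). The Tnip3 region was the widest (13939 bp, chromosome 6, 65583519 to 65597457) and held the gene start in interval 4. Tnip1, of the same family of A20-binding proteins, carried 1 of 8696 bp, and Ripk2, a kinase downstream of NOD receptors, 1 of 5868 bp. Ticam1, encoding the adaptor TRIF, was overlapped by 1 of 6901 bp whose midpoint lay 2153 bp outside the gene. Genes of the actin cytoskeleton and adhesion had the same share (4 of 39), and all 4 regions held the gene start. They lay at Actg1 (9076 bp), Tns3, encoding tensin 3 (8746 bp), Itgav, an integrin subunit gene (8374 bp), and Myh9, the non-muscle myosin heavy chain gene (5293 bp).

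Macrophage lineage genes were overlapped in 4 of 47 cases (8.51%, 3.36 to 19.9%), all by regions of 5 intervals. Beside Fcer1g these were Sirpa, encoding an inhibitory receptor for CD47 (14476 bp), and the transcription factor genes Ets2 (9028 bp) and Tfe3 (4503 bp). The primary LPS response list had 2 of 50 genes overlapped (4%, 1.10 to 13.5%). These were Gadd45b, by a region of 7968 bp on chromosome 10 (80928125 to 80936092), and Nfkb1, the NF-kB subunit gene, by 1 of 5824 bp inside the gene. None of 39 secondary and interferon response genes was overlapped (0%, up to 8.97%). Regions of 5 or more intervals in large clusters overlapped 11 primary and 5 secondary genes, or 22% and 12.8%, where 1.22% of all coding genes were overlapped. On the other lists described so far, their shares were 17.9% for actin, 12.8% for macrophage lineage and 10.3% each for lysosome and Toll-like receptor genes. Those for survival and MAP kinase genes were 5.26 and 3.23%. No region can belong to both groups, so the rule sets them apart in part. MED1 regions of any kind overlapped 96% of the primary and 89.7% of the secondary list.

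Of the remaining lists, translation had 3 of 31 genes overlapped (9.68%), namely Rplp0 by a region of 7 intervals and 4418 bp, Rpl13a (9929 bp) and Rpl13 (5316 bp). The first of these regions had its midpoint 172 bp outside Rplp0 and held the start of the neighbouring Gcn1. The Rpl13a region also covered small nucleolar RNA genes. Histone acetylation and BET genes had 2 of 32 (6.25%). Sirt7, a deacetylase gene, had its start in a region of 7 intervals and 9170 bp whose midpoint lay inside Mafg. Kat2b, an acetyltransferase gene, carried 1 of 3406 bp. The lists of 2-ketoacid dehydrogenase and acetyl-CoA genes (0 of 22), of Mediator (0 of 33) and of RNA polymerase II and splicing (0 of 32) had none, although any MED1 region overlapped 90.9, 93.9 and 100% of them. Upper 95% limits for these zeros were 14.9, 10.4 and 10.7%. Markers of T cells (0 of 20), B cells (0 of 18), neurons (0 of 24) and skeletal muscle (0 of 20) had none, and 1 of 20 hepatocyte markers was overlapped, Apoa2, which shares the Fcer1g region.

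Within 50 kb of a many-interval region's midpoint lay an end of 74 of the 574 list genes found, and of 1422 of all 21627 coding genes (6.58%). The start of 24 list genes lay in 23 many-interval regions. By list this was 0 to 14.3% of the genes with a listed start, highest for the lysosome list (4 of 28). Of all coding genes with a listed start it was 272 of 17273 (1.57%). The share among genes that carry any MED1 region was not computed for either measure. In 22 of the 24 it lay in an even interval, and the exceptions were Pim1, in the middle interval, and Lamp1, in the last. The reach from the start varied among them. The Fcer1g region extended 1.636 kb upstream and 13.616 kb downstream, and that of Lipa 0.734 and 13.227 kb. The Actg1 region extended mostly upstream (7.016 and 2.059 kb), as did that of Sirt7 (8.139 and 1.03 kb), while that of Tnip3 was nearly symmetrical (6.879 and 7.059 kb).

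The promoters of genes that started in a many-interval region were rich in GC. Their median GC content was 62.3% (quartiles 55.7 and 68.7%, 272 promoters), against 60.7% for 5961 promoters in 3-interval regions, 58.3% for 135 in large-cluster regions of 5 or more intervals, 51.7% for 9985 outside any region and 56.3% for all 17273. They held a median of 21 CpG dinucleotides, against 22, 15, 5 and 14. For 547 promoters in 3-interval regions of the middle widths in small clusters, the medians were 62% GC and 22 CpG dinucleotides.

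Fixed motifs were searched on both strands of the 300 bases. The GC box GGGCGG was found in 67.6% (61.9 to 72.9%) of these 272 promoters and in 46.9% of all promoters. It was found in 65.7% of promoters in 3-interval regions, 69.1% of those in 3-interval regions of the middle widths in small clusters and 52.6% of those in large-cluster regions. The short ETS motif CCGGAAG was found in 18.8% (14.6 to 23.8%), against 12.1% of all, 24.4% in 3-interval and 8.15% in large-cluster regions. In 3-interval regions of the middle widths in small clusters it was found in 16.8%. TATAAA was found in 8.46% (5.70 to 12.4%), against 13.4% of all, 6.36% in 3-interval, 8.96% in middle-width 3-interval and 17.8% in large-cluster regions. The 272 promoters lay in many-interval regions of all widths, so the middle-width set is not matched to them. These motifs differ in base composition, as do the groups of promoters, and its part in the shares was not tested.

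Of the motifs of macrophage activators, PU.1-type, C/EBP and interferon-type motifs had Wilson intervals that included the share of all promoters, AP-1 lay below and the looser NF-kB pattern above. In 3-interval regions of the middle widths the shares were 4.57% for AP-1 and 24.9% for looser NF-kB, both inside the intervals of the many-interval regions of all widths. The PU.1-type motif GAGGAAGT was found in 4.04% (2.27 to 7.10%) against 3.17% of all, the C/EBP motif TTGCNNAA in 7.72% (5.10 to 11.5%) against 10.3%, and the interferon-type motif in 4.41% (2.54 to 7.55%) against 3.43%. The AP-1 motif TGANTCA was found in 3.68% (2.01 to 6.63%) against 7.09%. The strict NF-kB pattern was found in 0 of 272 promoters (up to 1.39%) and in 0.394% of all. The looser pattern, of which every strict match is also a match, was found in 28.7% (23.6 to 34.3%) against 20.9%. The remaining motifs were CCAAT (36.4 against 39.6%), CACGTG (10.7 against 8.01%), the cyclic AMP element TGACGTCA (4.78 against 2.36%), the NRF1 motif (0.735 against 1.35%) and the YY1 core (1.47 against 0.978%). In the same order, the shares in 3-interval regions were 40.7, 11.3, 4.09, 2.85 and 2.23%. In those of the middle widths in small clusters they were 39.7, 12.1, 3.47, 1.46 and 1.46%. These windows cover promoters only, and the sequence of the regions themselves was not analysed here.

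MicroRNA genes lay in 10 many-interval regions, which overlapped 12 of the 1005 hairpins with an entry in the RefSeq table. This is 3.19 hairpins per covered Mb, against 2.45 for 3-interval regions and 2.18 for all regions. At the middle widths the order was the other way, with 3 hairpins and 1.74 per Mb against 2.25 for 3-interval regions. The region of 13172 bp on chromosome 11 (87747834 to 87761005), which touches Tspoap1, held Mir142 and the opposite-strand Mir142b in interval 4, the widest at 7827 bp. MiR-142 is abundant in blood cells and little expressed elsewhere. The 16347 bp region whose nearest coding gene was Usp25 held Mir99a and Mirlet7c-1 in interval 2, of 9276 bp. The mature sequences are shown because they identify which microRNAs these regions cover. Capitals mark the seed, bases 2 to 8, and each of these seeds is different.
mmu-miR-142a-5p: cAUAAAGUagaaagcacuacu
mmu-miR-142a-3p: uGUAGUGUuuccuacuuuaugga
mmu-miR-99a-5p: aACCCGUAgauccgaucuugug
mmu-let-7c-5p: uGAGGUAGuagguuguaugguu

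Many-interval regions were found on all 20 chromosomes analysed. They made up 1.51 to 3.06% of the regions of each autosome, lowest on chromosome 13 (14 of 929) and highest on chromosome 8 (32 of 1047), and 1.11% (0.473 to 2.56%) on the X chromosome (5 of 452). The Wilson intervals of chromosomes 8 and 13 overlapped (2.17 to 4.28% and 0.900 to 2.51%).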

How the data were processed

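Per the submitters' processing notes, Bowtie, SAMtools, MACS2 2.2.6 and build mm10 were used. How these were set, and whether libraries were pooled or a control used, is not given in the sources used here. A single list of 53764 intervals was deposited. It has 0 columns of other samples. Its score column, as the authors deposited it, holds only 0 and was not used. Coordinates are 1-based. Chromosomes Y and M (17 intervals) were left out. Regions and clusters were built from the list, and gene and promoter positions came from RefSeq, GRCm38.p6. The start of a gene was the listed promoter closest to its annotated 5′ end. The planned comparison of conditions needs intervals assigned to libraries and was not made.

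The regions, lists and motifs were chosen with earlier results of these data known. Named genes were those of the 10 regions with the most intervals, the 10 widest, up to 5 per list by intervals and width, and 3 on each side of each threshold. Sequences shown are 5 of 8 taken 1 list at a time. Genes outside this rule (Rps6ka1, Lamp1, Srebf1, Soat1, those of the middle interval, regions with 3 or more starts, microRNAs) were named after their values were seen. Some overlapped genes are not reported here by name. In tests on simulated data, all 62 planted regions were recovered with their class. Values were computed in Python 3.11.15 with pandas 2.3.3 and numpy 2.4.6 and drawn with matplotlib 3.10.9.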

Additional observations from a re-analysis of the deposited data

How the results depend on the processing

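No paired analysis was possible because the list names no library, and for the same reason no library could be left out. The number of many-interval regions stayed within 1.5 times of 574 when clusters were stitched within 5 kb (691) or 25 kb (426), when large clusters began at 15 kb (458) or 25 kb (655), and when intervals at most 50 bp apart were joined (575). With 7 or more intervals required it was 43. The share with the midpoint at a gene end (22.1%) was 12.4% with a window of 500 bp, 42.0% with 2500 bp, 52.8% by any overlap, 28.0% with all annotated genes, 14.0% with 7 or more intervals and 29.2% for regions alone in their cluster, an alternative added after the data were examined. The share inside genes was 53.5 and 33.1% with windows of 500 and 2500 bp, and the share outside genes 21.6% with all annotated genes. List genes numbered 24 by gene start and 74 within 50 kb, against 39. The share of starts in the middle interval, with alternatives added after the data were examined, was 13.8% with every listed start, 5.17% in wider and 22.3% in narrower regions. Requiring 2 matches, the motif shares were 0.368% for PU.1-type, AP-1 and TATA, 3.31% for short ETS, 4.41% for looser NF-kB, 0.735% for interferon-type and CACGTG, 1.47% for C/EBP, 14.3% for CCAAT, 40.4% for the GC box and 0 for the cyclic AMP, NRF1 and YY1 motifs. Depth is unknown, so no interval could be ranked by strength.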
